A study of Mus musculus with 39 samples.

Results

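Slc22a29, Abca13, Glb1l3, C4bp-ps1, Abca8a and Sgk1 are 6 genes picked from this series as transcripts that appear late in rods, have no known role in light detection and stay low without Nrl. They were picked on the values described below, so their levels are given as a description and carry no test. The array annotation pairs 7 of 34945 single-gene probe sets with these symbols, and all 6 genes were measured among 18193 genes in all. Abca13 had 2 probe sets and the other genes 1 each, and the main value of a gene is its probe set with the highest mean over all arrays.

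Photoreceptors were sorted by flow cytometry on a GFP transgene that is driven by the Nrl promoter in both genotypes. In Wt-Gfp mice (wt) this reporter marks rod precursors and rods in a wild-type background. In Nrl-ko-Gfp mice (ko) the same transgene was crossed into Nrl knockout animals, where the sorted cells are S-cone-like photoreceptors and no rods form. Both genotypes were sampled at embryonic day 16 (E16), postnatal days 2, 6 and 10 (P2, P6, P10) and 4 weeks, with 4 Affymetrix arrays in each of the 10 groups except ko E16 with 3, which gave 20 wt and 19 ko arrays. By this design all groups carried the transgene and the sort, and each wt group is the control of the ko group of the same stage. The title of ko 4 weeks replicate 1 adds the word retina, which no other title holds. The labels do not say if this array was made from sorted cells like the others. Nothing in the labels states if arrays within a group were made from different animals, so the spread and each p-value refer to arrays.

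Nrl is a leucine zipper transcription factor of the MAF family that directs postmitotic precursors to the rod fate, together with the homeodomain factor Crx and the nuclear receptor Nr2e3. Without Nrl these precursors become cells that resemble short-wavelength cones. Rods switch on their phototransduction genes over the weeks after birth, while outer segments grow and synapses form. The 6 genes belong to other families. Slc22a29 is a transporter-family gene, Abca13 and Abca8a encode lipid transporters of the ABCA family, Glb1l3 is a relative of lysosomal beta-galactosidase, C4bp-ps1 is a pseudogene of a complement-binding protein, and Sgk1 encodes a kinase that glucocorticoids and cell stress induce.

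Signals are log2 values as deposited, from 4.03 to 14.48 over the whole table. Array means lay between 6.94 and 7.01 and the spread over probe sets (SD) between 1.34 and 1.80. Probe sets with an absent detection call in all 10 columns of the deposited calls had a median signal of 6.11 and a 95th percentile of 8.06, which serves below as the level of background. The mean of 8 rod reference genes at 4 weeks was 12.03 to 12.22 in wt arrays and 9.18 to 9.39 in ko arrays. The mean of 8 cone markers was 7.86 to 9.49 in wt and 11.45 to 11.87 in ko, and all 8 were called higher in ko, which here means a Benjamini-Hochberg adjusted p under 0.05 in a limma fit over all genes. In 1 ko array at 4 weeks, replicate 2, Nrl lay at 9.05, while the other 3 held it at 5.60 to 5.77. This array and the 5 arrays with the lowest spread (ko E16 replicate 3, ko P2 replicate 4, ko P6 replicate 4, wt P10 replicates 1 and 2) were doubted.

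The promoters of the genes are shown because the pattern described below differs between them, and because each window can be read against the short motifs of the rod factors. RefSeq (GRCm38.p6) lists 10 start sites for 5 of the genes, 6 of them for Sgk1, and no promoter was given for C4bp-ps1. Each window runs from 250 bases before to 50 bases after the start site. Capitals mark, on either strand, TAATCC or GGATTA (the core motif of Crx and Otx2), TGCTGA or TCAGCA (the core of the MAF motif that Nrl uses), AAGTCA or TGACTT (a nuclear receptor motif) and AGAACA or TGTTCT (the motif of the glucocorticoid receptor). The windows are chr19:8218851-8219150 on the minus strand for Slc22a29, chr11:9191692-9191991 on the plus strand for Abca13, chr9:26860774-26861073 on the minus strand for Glb1l3, chr11:110095888-110096187 on the minus strand for Abca8a, and chr10:21993640-21993939 on the plus strand for the fifth start site of Sgk1.
Slc22a29: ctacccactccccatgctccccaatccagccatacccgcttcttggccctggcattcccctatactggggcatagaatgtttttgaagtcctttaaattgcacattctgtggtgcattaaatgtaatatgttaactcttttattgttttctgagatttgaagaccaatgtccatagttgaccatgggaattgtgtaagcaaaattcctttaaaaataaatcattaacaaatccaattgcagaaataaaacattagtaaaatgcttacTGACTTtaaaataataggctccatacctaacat
Abca13: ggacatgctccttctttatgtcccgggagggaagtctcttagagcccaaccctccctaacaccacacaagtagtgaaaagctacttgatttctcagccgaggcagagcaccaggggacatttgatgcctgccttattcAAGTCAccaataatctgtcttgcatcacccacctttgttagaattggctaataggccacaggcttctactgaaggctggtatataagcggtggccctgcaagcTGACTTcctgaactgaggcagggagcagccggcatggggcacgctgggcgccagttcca
Glb1l3: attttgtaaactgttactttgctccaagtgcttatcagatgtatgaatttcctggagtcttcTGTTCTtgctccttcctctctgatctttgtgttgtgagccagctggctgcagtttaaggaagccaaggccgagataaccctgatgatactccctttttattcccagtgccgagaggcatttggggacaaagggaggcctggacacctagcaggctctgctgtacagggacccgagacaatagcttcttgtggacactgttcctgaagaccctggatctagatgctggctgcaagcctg
Abca8a: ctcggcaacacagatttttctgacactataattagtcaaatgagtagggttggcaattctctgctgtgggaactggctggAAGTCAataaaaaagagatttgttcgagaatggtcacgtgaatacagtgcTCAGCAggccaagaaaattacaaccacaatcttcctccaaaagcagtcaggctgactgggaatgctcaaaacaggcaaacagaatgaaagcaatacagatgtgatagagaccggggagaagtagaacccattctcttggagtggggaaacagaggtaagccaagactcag
Sgk1: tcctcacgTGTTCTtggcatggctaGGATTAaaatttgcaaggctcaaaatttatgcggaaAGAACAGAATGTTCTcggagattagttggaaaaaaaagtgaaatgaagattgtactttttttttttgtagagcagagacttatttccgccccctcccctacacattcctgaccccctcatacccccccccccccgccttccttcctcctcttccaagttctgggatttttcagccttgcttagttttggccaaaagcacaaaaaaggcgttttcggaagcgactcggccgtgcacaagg

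The nuclear receptor motif lay in 4 of the 10 windows, which belonged to 4 of the 5 genes. Slc22a29 held it once, after the start site at 18 to 23, and Abca13 held it on the plus strand at -112 to -107 and on the minus strand at -9 to -4. In Abca8a it lay at -170 to -165, and the same window held a MAF motif at -120 to -115. The MAF motif was otherwise found in 1 Sgk1 window, and the Crx motif in 2 Sgk1 windows and in no window of the other 4 genes. The glucocorticoid motif occurred in Glb1l3 at -188 to -183 and in 3 of the 6 Sgk1 windows. In the Sgk1 window shown, a pair of these motifs forms the palindrome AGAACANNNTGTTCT at -189 to -175, a motif searched for after the sequence was seen. Among 32851 promoters of 27025 genes, 7.06% held the Crx motif, 19.5% the MAF motif, 15.1% the nuclear receptor motif and 19.0% the glucocorticoid motif, while 3 promoters held the palindrome. These shares count single promoters, and Sgk1 had 6 of the 10 windows, so they are not to be set beside counts of genes. Such short matches are a description of the letters in these windows.

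In wt, the 6 genes had covered 0.8% to 17.3% of their rise from E16 to 4 weeks by P6, as log2 values. Of these genes, 5 rose mainly between P10 and 4 weeks. At 4 weeks every wt array lay above every wt P10 array for Slc22a29, Abca13, Glb1l3, C4bp-ps1 and Sgk1, as it did for 3.55% of all genes. The wt arrays of Abca8a overlapped between these stages. At 4 weeks every ko array lay below every wt array for the same 5 genes, against 5.84% of all genes, and the Abca8a arrays of both genotypes overlapped. Since the genes were chosen on these values, nothing is read from these counts. Without the 6 doubted arrays both counts were again 5 of 6, against 4.63% and 9.01% of all genes. Because these are sorted bulk samples, fewer cells of a type and less RNA per cell cannot be told apart.

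**Figure D1:**
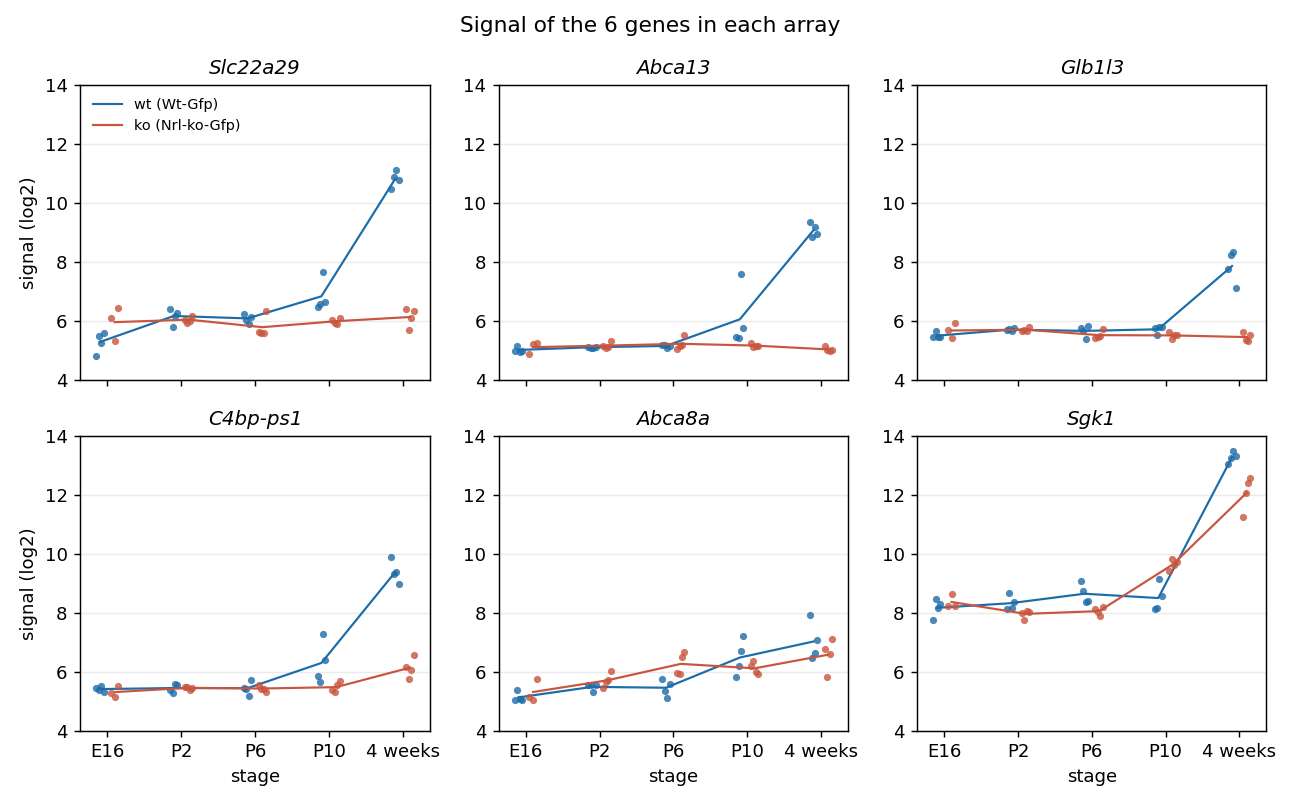
Deposited log2 signal (vertical axis, the same in each panel) of the 6 genes at each stage (horizontal axis), with 1 point per array and a line through the group means, wt in blue and ko in red. Slc22a29, Abca13, Glb1l3 and C4bp-ps1 rise in wt at 4 weeks while ko stays between 4.95 and 6.58 at that stage, Sgk1 rises in both genotypes, and the Abca8a arrays of the genotypes overlap at 4 weeks.

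Slc22a29 belongs to the SLC22 family of organic ion transporters and lies on chromosome 19 in a cluster of related genes. In wt its signal was 4.79, 5.49, 5.25 and 5.56 at E16, and group means of 6.16 ± 0.26 at P2 and 6.08 ± 0.14 at P6 followed (SD, n = 4 each). At P10 the wt arrays read 6.45, 6.57, 7.66 and 6.62, and at 4 weeks 10.46, 10.88, 11.11 and 10.78. The lowest array at 4 weeks thus stood 2.81 above the highest at P10, and replicate 3 was the highest of the P10 arrays. In ko the arrays read 6.04, 5.91, 5.88 and 6.09 at P10 and 6.41, 5.67, 6.07 and 6.34 at 4 weeks. These ko arrays lay at the level of background at both stages and overlapped with each other. The wt mean rose by 3.98 (SE 0.31) from P10 to 4 weeks and the ko mean by 0.14. At 4 weeks the ko mean of 6.12 ± 0.33 was at least 25.8-fold below the wt mean of 10.81 ± 0.27, a difference of -4.69 (SE 0.21, n = 4 each). A bound is given here and for 3 other genes because the ko level lies within the range of background.

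At P10 the Slc22a29 difference was already -0.84 (SE 0.28), with every ko array below every wt array. At E16 it was 0.67, at P2 -0.12 and at P6 -0.30, with overlapping arrays each time. The detection call of its probe set was present in wt at P2 and P10 and absent at E16 and P6, and in ko present at E16 and P6 and absent at P2 and P10. The 4 wt means in the order of the stages were 5.28, 6.16, 6.08 and 6.82, and the 4 ko means 5.95, 6.03, 5.78 and 5.98. The identifier of this probe set marks it as one whose probes can bind related transcripts, so the signal of a near-identical relative cannot be set apart. A further probe set, shared with the neighbouring gene Slc22a30 and thus outside the rule, gave 12.37 ± 0.29 in wt and 7.34 ± 0.30 in ko at 4 weeks, a difference of -5.02.

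Abca13 encodes one of the largest ABC transporters, a protein linked to lipid traffic in vesicles. Its wt signal was flat at first, with group means of 5.0 ± 0.09 at E16, 5.10 ± 0.01 at P2 and 5.14 ± 0.05 at P6 (SD, n = 4 each). At P10 the wt arrays read 5.45, 5.41, 7.58 and 5.74, and at 4 weeks 9.36, 8.84, 9.16 and 8.93. One P10 array, replicate 3, stood far above the other 3, and all arrays at 4 weeks stood at least 1.26 above it. The ko arrays read 5.23, 5.09, 5.14 and 5.16 at P10 and 5.13, 5.0, 4.95 and 5.01 at 4 weeks, with no rise. The wt step from P10 to 4 weeks was 3.03 (SE 0.53) and the ko step -0.13. At 4 weeks ko lay at 5.02 ± 0.07 and wt at 9.07 ± 0.24, at least 16.6-fold lower (difference -4.05, SE 0.12). At P10 the difference was -0.89 (SE 0.52) with a gap of 0.18 between the arrays of the genotypes, and without wt replicate 3 it was -0.38.

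The other Abca13 probe set gave a smaller contrast in the same direction. Its wt arrays read 6.05, 5.89, 6.55 and 5.24 at P10 and 7.36, 7.66, 8.37 and 7.69 at 4 weeks, against 5.54, 5.09, 5.25 and 5.17 in ko at 4 weeks. The wt and ko arrays were apart at 4 weeks and overlapped at P10. The difference was -2.50 (SE 0.23, at least 5.68-fold) at 4 weeks. The wt mean of this set at 4 weeks, 7.77, lay under the 95th percentile of background, 8.06, and only the array at 8.37 exceeded that level. The detection call of the main Abca13 probe set was absent in wt through P6 and present at P10, and in ko it was present at P2 and absent at E16, P6 and P10, while the call of this other set was absent from E16 to P10 in both genotypes.

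Glb1l3 lies next to Glb1l2 on chromosome 9, and both encode proteins of the beta-galactosidase family. Its wt signal was 5.49 ± 0.10 at E16, 5.69 ± 0.04 at P2 and 5.65 ± 0.18 at P6, and the P10 arrays read 5.75, 5.51, 5.78 and 5.79. At 4 weeks the wt arrays read 7.77, 8.22, 8.32 and 7.10. Glb1l3 thus showed no step at P10, and its 4-week arrays stood at least 1.31 above all P10 arrays. The ko arrays read 5.60, 5.36, 5.50 and 5.53 at P10 and 5.63, 5.33, 5.30 and 5.51 at 4 weeks. The wt step was 2.14 (SE 0.29), the ko step -0.06, and at 4 weeks ko (5.44 ± 0.15) lay at least 5.31-fold below wt (7.85 ± 0.55), with a difference of -2.41 (SE 0.29). The wt mean at 4 weeks remained under the 95th percentile of background, 8.06, and 2 of the 4 wt arrays exceeded it. From E16 to P10 the detection call was absent in both genotypes.

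C4bp-ps1 is a transcribed pseudogene on chromosome 1, beside C4bp, which encodes a subunit of the complement inhibitor C4b-binding protein. The wt means were 5.41 ± 0.09, 5.44 ± 0.15 and 5.44 ± 0.21 at E16, P2 and P6. At P10 the wt arrays read 5.84, 5.67, 7.28 and 6.40, and at 4 weeks 9.88, 9.30, 9.37 and 8.97. Replicate 3 was again the highest P10 array, and the 4-week arrays stood at least 1.68 above it. The ko arrays read 5.37, 5.32, 5.54 and 5.67 at P10 and 6.16, 5.77, 6.04 and 6.58 at 4 weeks, so that ko also moved up, by 0.66 (SE 0.19) with a gap of 0.10 between its arrays. For 5.8% of all genes the ko arrays at 4 weeks lay wholly above those at P10. The wt step was 3.08 (SE 0.41). At 4 weeks the ko mean of 6.14 ± 0.34 was at least 9.45-fold below the wt mean of 9.38 ± 0.38 (difference -3.24, SE 0.25). The detection call of C4bp-ps1 was absent in wt through P6 and present at P10, and in ko absent from E16 to P10. Its related gene C4bp lay at 5.90 in ko and 5.98 in wt at 4 weeks.

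Sgk1 encodes the serum- and glucocorticoid-regulated kinase, and it went against the description under which it was grouped, since it rose strongly in ko as well. The wt means were 8.17 ± 0.31 at E16, 8.32 ± 0.25 at P2 and 8.65 ± 0.33 at P6. At P10 the wt arrays read 8.13, 8.16, 9.14 and 8.56, and at 4 weeks 13.05, 13.25, 13.50 and 13.32. The ko arrays read 9.41, 9.82, 9.62 and 9.71 at P10 and 11.24, 12.06, 12.40 and 12.59 at 4 weeks. At P10 all ko arrays thus lay above all wt arrays, and at 4 weeks all lay below. The wt step from P10 to 4 weeks was 4.78 (SE 0.25, 27.5-fold) and the ko step 2.43 (SE 0.31, 5.40-fold).

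The Sgk1 difference between genotypes changed sign along the series. It was -0.36 at P2, -0.59 at P6, 1.14 (SE 0.25, 2.21-fold higher in ko) at P10 and -1.21 (SE 0.31, 2.31-fold lower in ko) at 4 weeks, and the arrays did not overlap at any of these stages. At E16 they overlapped. All ko arrays lay above all wt arrays at P10 for 3.17% of all genes, and below them at P2 for 2.62% and at P6 for 5.56%. Sgk1 had a present call in every column. The ko mean at 4 weeks had covered 76.4% of the wt rise from E16, as log2 values. Stress and immediate-early genes also differed between the genotypes in these arrays. The mean of 10 such genes was 7.18 to 7.58 in ko and 7.84 to 8.08 in wt at E16, 7.52 to 7.64 against 7.98 to 8.33 at P2, and 7.73 to 8.09 against 8.08 to 8.26 at P6. It was 8.41 to 8.59 in ko and 7.54 to 8.38 in wt at P10, and 8.18 to 8.68 against 7.90 to 8.13 at 4 weeks. Of these 10, Egr1 was called lower in ko at P2, Fos and Nr4a1 were called higher at P10, and Jun, Egr1 and Nr4a1 higher at 4 weeks. Their part in the Sgk1 values was not tested.

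Abca8a, a transporter linked to cholesterol efflux, did not show the contrast between genotypes under which it was grouped. Its wt arrays read 5.83, 6.18, 6.71 and 7.20 at P10 and 7.92, 6.46, 6.63 and 7.09 at 4 weeks, and its ko arrays 6.18, 6.35, 6.0 and 5.92 at P10 and 6.78, 5.83, 6.59 and 7.12 at 4 weeks. The arrays overlapped between the genotypes at each of these stages and between these stages in each genotype. All Abca8a values lay below the 95th percentile of background, so no fold is given. From E16 to 4 weeks the mean went from 5.13 to 7.03 in wt and from 5.31 to 6.58 in ko, and in each genotype the arrays of these stages were apart. The difference was -0.45 (SE 0.43) at 4 weeks and -0.37 (SE 0.31) at P10. At P6 all ko arrays (5.96, 5.93, 6.50 and 6.67) lay above all wt arrays (5.77, 5.34, 5.12 and 5.59), by 0.81 (SE 0.24) in the mean, as they did for 2.59% of all genes. The deposited call was present in wt at P10 and absent in ko from E16 to P10.

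At P10, taking the 6 genes together, ko lay wholly below wt for Slc22a29 and Abca13, against 4.28% of all genes, wholly above for Sgk1, and overlapped for Glb1l3, C4bp-ps1 and Abca8a. Replicate 3 was the highest P10 array for Slc22a29, Abca13, C4bp-ps1 and Sgk1, and replicate 4 for Glb1l3 and Abca8a. Replicate 3 was also the highest P10 array for 623 of the 773 genes (4.25% of all genes) that limma called higher in wt at 4 weeks than at P10, a share of 80.6%, and for 31.3% of all genes. The SD of the P10 arrays over probe sets was 1.41, 1.35, 1.76 and 1.57. Without the doubted replicates 1 and 2, the 2 remaining wt arrays lay above all ko arrays for 5 of the 6 genes, all but Sgk1, against 16.2% of all genes, and below them for Sgk1, against 7.35%. The C4bp-ps1 difference was then -1.36 and that of Abca8a -0.84, and without wt replicate 3 alone the C4bp-ps1 difference was -0.49.

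The time of the rise was compared with that of 3 rod genes, Nrl, Pde6b (a subunit of the rod phosphodiesterase) and Gnat1 (rod transducin), on the scale of the wt rise from E16 to 4 weeks in log2 units. By P10, Sgk1 had covered 6.5% of its rise, Glb1l3 9.2%, C4bp-ps1 22.3%, Abca13 25.5% and Slc22a29 28.0%. Abca8a had covered 71.2%. By the same stage Nrl had covered 87.4%, Pde6b 86.8% and Gnat1 70.8%. At P6 the 3 rod genes stood at 76.9%, 76.3% and 24.8%, while the highest of the 6 genes was Abca8a at 17.3%. At P10 the shares of the 5 genes other than Abca8a were thus below those of all 3 rod genes. The 6 genes were picked as late on these values, so this order, here and in the alternatives below, is a description without a test. Apart from Sgk1, every wt array from E16 to P10 lay below 8.06, in the range of background, for the main probe sets of the 6 genes. The early shares of Slc22a29, Abca13, Glb1l3, C4bp-ps1 and Abca8a are thus differences between signals in that range. The deposited calls of these probe sets were nonetheless present in wt at P10 for Slc22a29, Abca13, C4bp-ps1 and Abca8a, and at P2 for Slc22a29. No time of onset is read from these shares. The P10 shares moved with the arrays used, in alternatives chosen after seeing the data. Without wt P10 replicate 3 the share was 13.0% for Abca13, 14.1% for C4bp-ps1 and 2.3% for Sgk1. Without the doubted replicates 1 and 2 it was 40.7% for Abca13, 36.0% for C4bp-ps1, 13.4% for Sgk1, 90.2% for Gnat1 and 96.1% for Abca8a. In each of these alternatives the 5 genes other than Abca8a stayed below the 3 rod genes, with 40.7% the highest of the former and 64.1% the lowest of the latter. From E16 to P2 the wt arrays moved up without overlap for Slc22a29 and Glb1l3, and at that step 25.2% of all genes had every wt P2 array above every wt E16 array.

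**Figure D2:**
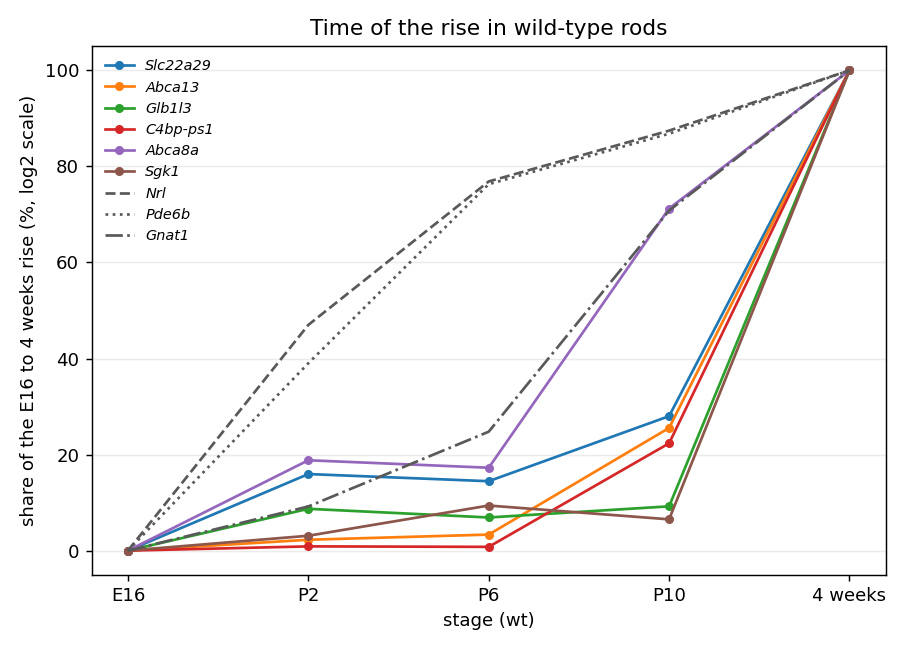
Share of the wt rise from E16 to 4 weeks (vertical axis, percent of the difference of log2 means) reached at each stage (horizontal axis, n = 4 arrays a stage), for the 6 genes in colour and for Nrl, Pde6b and Gnat1 in grey. Slc22a29, Abca13, Glb1l3, C4bp-ps1 and Sgk1 stand at 6.5% to 28.0% at P10, and Abca8a, whose signals all lie below 8.06, stands at 71.2%.

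The genes whose signal most resembled each of the 6 over the 39 arrays were found by Pearson correlation, given without a test because the arrays share their stages and genotypes. They were picked for likeness over these same arrays, so the features they share with the 6 genes are only a description. Kcnj14, an inwardly rectifying potassium channel, was the nearest gene to Slc22a29 (r = 0.981) and Abca13 (r = 0.988) and the second nearest to C4bp-ps1 (r = 0.970). Its wt arrays read 6.95, 6.80, 8.76 and 7.38 at P10 and 10.62, 10.77, 10.88 and 10.87 at 4 weeks, while ko lay at 6.34 ± 0.19 at 4 weeks. Kcnj14 thus showed the same high replicate 3 at P10 and no rise in ko. Epas1, a hypoxia-inducible transcription factor, followed for Slc22a29 (0.972) and Abca13 (0.961). Its wt arrays read 8.06, 8.0, 10.04 and 8.58 at P10 and 11.26, 11.34, 11.46 and 11.21 at 4 weeks, and ko stood at 8.02 to 8.33 at 4 weeks.

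Tnfaip3, a ubiquitin-editing inhibitor of NF-kappaB signalling, came next for Slc22a29 (0.956) and C4bp-ps1 (0.958), and Pdzph1 was first for C4bp-ps1 (0.975). Pdzph1, like C4bp-ps1, moved up in ko at 4 weeks, from 4.92 to 5.15 at P10 to 6.11 to 7.06. Glb1l3 was closest to Bst1, an ectoenzyme of NAD metabolism (0.982), Smim31 (0.937) and the collagen gene Col4a4 (0.936). The Bst1 arrays at 4 weeks read 7.35, 8.22, 8.22 and 7.0 in wt, so that replicates 2 and 3 were the highest, as for Glb1l3. Sgk1 was closest to Tmlhe, the first enzyme of carnitine synthesis (0.947), the transcriptional repressor Bcl6 (0.937) and Ahrr, the repressor of the aryl hydrocarbon receptor (0.935). Tmlhe read 8.46, 9.68, 10.41 and 10.50 in ko at 4 weeks, with replicate 1 the lowest and replicate 4 the highest, in the order in which Sgk1 read there.

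Abca8a was closest to the sulfatase Arsg (0.884), the mineralocorticoid receptor Nr3c2 (0.850) and the calcium channel subunit Cacnb2 (0.847), at lower values than those of the other 5 genes. Without ko 4 weeks replicate 2, or without the 6 doubted arrays, Arsg was the only one of these still among the 3 nearest genes of Abca8a. Without the doubted arrays Vax2os replaced Epas1 among the 3 nearest genes of Abca13. Among the 6 genes, the pairs of Slc22a29, Abca13, Glb1l3 and C4bp-ps1 correlated at 0.916 to 0.966, Sgk1 with the other genes at 0.654 to 0.802 and Abca8a with the other genes at 0.482 to 0.681. By rank correlation the order of nearest genes was different, since at most 1 of the 3 nearest genes was shared for any of the 6.

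Genes related by family or function were compared by limma (empirical Bayes linear models over all 18193 genes, Benjamini-Hochberg adjusted p under 0.05). The choice of the 6 did not use them, but the lists were chosen with earlier results of these data known. They are thus no independent support. Bcl6 and Nr3c2 of these lists were also among the genes nearest to Sgk1 and Abca8a above. The number of genes measured in each list is given with that list below. At P10, 2 related genes were called between ko and wt and both were higher in ko. Over all genes 2.81% were called, 1.95% higher. At 4 weeks 10 were called, 3 higher and 7 lower in ko. Over all genes 4.73% were called, 2.11% higher and 2.62% lower. From P10 to 4 weeks in wt, 10 were called, all higher, with 5.34% of all genes called and 4.25% called higher. Median differences of the 6 lists at 4 weeks ran from 0.01 to 0.07, beside 0.03 over all genes. At P10 they ran from -0.09 to 0.03, beside -0.06 over all genes. Without wt P10 replicate 3 the counts were 10 for the genotypes at P10 and 30 for the wt step, without the 6 doubted arrays 12 genes were called at P10, and without ko 4 weeks replicate 2 or wt 4 weeks replicate 3 the count at 4 weeks was 6.

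**Figure D3:**
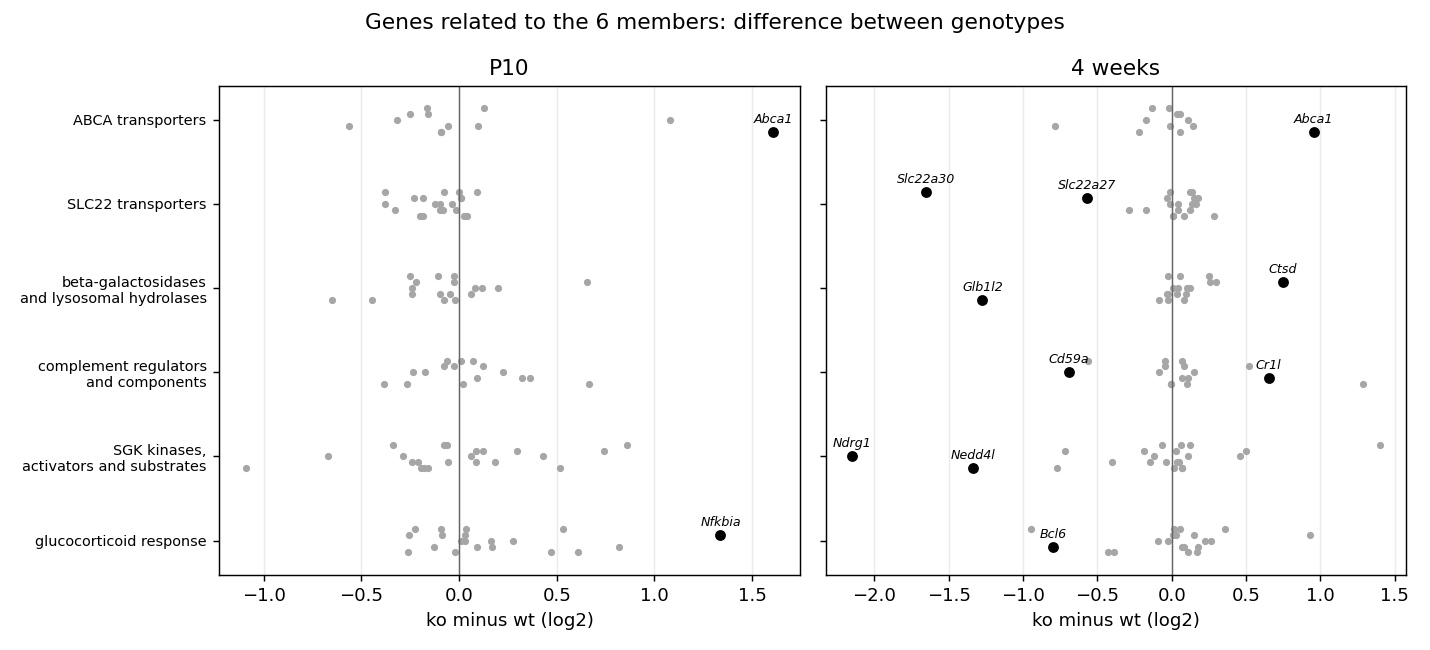
Difference between genotypes (ko minus wt, log2, horizontal axis) at P10 and at 4 weeks for each measured gene of 6 related lists (rows), with grey points for genes that were not called and black named points for genes called by limma at an adjusted p under 0.05. At P10 the called genes are Abca1 and Nfkbia, and at 4 weeks 3 called genes lie to the right of 0 and 7 to the left.

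Among the SLC22 transporters, 20 of 24 listed genes were measured and 6 had a present call in any column. At P10 limma called 0 of them between genotypes, with 2 at an unadjusted p under 0.05, and at 4 weeks Slc22a30 and Slc22a27, which lie on either side of Slc22a29, were called lower in ko. Slc22a30 read 7.78, 7.78, 8.24 and 7.62 in wt and 6.36, 5.86, 6.38 and 6.21 in ko at 4 weeks, without overlap. The difference was -1.65 (SE 0.20, limma adjusted p = 3.64e-07), and the wt step from P10 was 1.26 (SE 0.20, limma adjusted p = 7.59e-05). Slc22a27 was dim, at 5.60 in wt and 5.03 in ko, with a difference of -0.57 (limma adjusted p = 8.64e-05) and a wt step of 0.54 (limma adjusted p = 0.000279). In a fit of the compared arrays alone the wt steps of Slc22a30 and Slc22a27 were not called (limma adjusted p = 0.0582 and 0.184). The ko minus wt difference of both genes was larger in size at 4 weeks than at P10, by -1.28 (SE 0.28, limma adjusted p = 0.0153) for Slc22a30 and by -0.58 (limma adjusted p = 0.0225) for Slc22a27, where 0.967% of all genes were called. Without wt 4 weeks replicate 3 neither change passed (adjusted p = 0.0604 and 0.0848), and that of Slc22a27 was also lost without ko 4 weeks replicate 2 (adjusted p = 0.0550). Neither change passed in a fit of the compared arrays alone (limma adjusted p = 0.0629 and 0.154). Because the sequences of these relatives are alike, signal of Slc22a29 could be counted in their probe sets, which was not tested. The cluster members Slc22a19 and Slc22a26 were not called in either genotype comparison.

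Of the ABCA transporters, 12 of 14 were measured. Abca4, which clears retinal derivatives from photoreceptor discs, read 10.10, 9.69, 11.11 and 11.16 in wt at P10 and 12.38, 11.78, 11.67 and 11.79 at 4 weeks, a rise of 1.39 (SE 0.30, limma adjusted p = 0.00357). This call of Abca4 was lost in a fit of the compared arrays alone (limma adjusted p = 0.184). At 4 weeks its ko mean was 11.12 ± 0.39 and its wt mean 11.91 ± 0.32 (difference -0.79, limma adjusted p = 0.195), and it was not called between them. Abca1, the cholesterol exporter, was higher in ko at P10, with 9.47, 10.13, 9.74 and 9.85 against 8.28, 8.29, 8.07 and 8.12 in wt. The difference was 1.61 (SE 0.28, limma adjusted p = 0.000429). At 4 weeks Abca1 was 0.96 higher in ko (limma adjusted p = 0.0424), a call lost without any of ko replicates 2 and 4 or wt replicates 2, 3 and 4 (highest adjusted p = 0.227). With the mean of its probe sets the difference was 0.39 (adjusted p = 0.0673), and the call was also lost without the doubted arrays, after centring on the medians, with the replicate block and in a fit of the compared arrays alone (adjusted p = 0.121, 0.0555, 0.0575 and 0.115). The closest relatives of Abca8a, Abca8b and Abca9, were not called, and lay at 4.86 and 6.43 in ko against 4.80 and 6.28 in wt at 4 weeks.

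Of 23 beta-galactosidases and lysosomal hydrolases, 18 were measured. Glb1l2, the neighbour of Glb1l3, read 7.16, 6.98, 7.12 and 7.26 in wt and 5.89, 5.62, 5.94 and 5.96 in ko at 4 weeks, without overlap (difference -1.27, SE 0.20, limma adjusted p = 2.98e-05). Its wt mean was 6.55 ± 0.46 at P10, and the wt step of 0.58 missed the threshold (limma adjusted p = 0.0908). The protease Ctsd was 0.75 higher in ko at 4 weeks (limma adjusted p = 0.0135), a call lost without wt replicate 2 or 3 (adjusted p = 0.0674 and 0.0588). Glb1 itself, the lysosomal enzyme, was not called, with 6.53 ± 0.08 in ko and 6.28 ± 0.22 in wt. No other measured gene of this list was called at 4 weeks by limma.

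Of 21 complement regulators and components, 16 were measured. The membrane inhibitor Cd59a rose in wt by 1.81 from P10 to 4 weeks (limma adjusted p = 8.59e-09), from 7.47 to 8.02 across the P10 arrays to 8.99 to 9.85 at 4 weeks. It was 0.69 lower in ko at 4 weeks as log2 means (difference -0.69, limma adjusted p = 0.0132), with arrays that overlapped. That call was lost without ko replicate 2 or wt replicate 1 or 3 (highest adjusted p = 0.0766), after quantile normalization (adjusted p = 0.102) and in a fit of the compared arrays alone (adjusted p = 0.0958). Cr1l, the mouse regulator known as Crry, was 0.65 higher in ko (limma adjusted p = 0.00463). The Cr1l call was lost in a fit of the compared arrays alone (limma adjusted p = 0.0902). Vtn, vitronectin, an inhibitor of the terminal complex, rose in wt by 3.19 (SE 0.43, 9.14-fold, limma adjusted p = 4.21e-06) and in ko by 2.62 (SE 0.43, limma adjusted p = 0.000356). The wt call of Vtn was lost in a fit of the compared arrays alone (limma adjusted p = 0.129). At 4 weeks its genotypes stood at 10.73 ± 0.41 in ko and 11.29 ± 0.24 in wt and it was not called between them.

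All 22 SGK kinases, activators and substrates were measured. The substrate Ndrg1 had the largest difference of the list in size, with 9.52, 11.78, 9.41 and 9.24 in ko and 12.02, 12.13, 12.22 and 12.19 in wt at 4 weeks. The difference was -2.15 (SE 0.29, 4.44-fold lower, limma adjusted p = 2.68e-06), and without ko replicate 2, the array with high Nrl, it was -2.75. Ndrg1 had not been called at P10 (12.02 in ko, 12.69 in wt), and in ko it fell by 2.03 from P10 to 4 weeks (limma adjusted p = 5.21e-05, with 1.04% of all genes called) while Sgk1 was higher at 4 weeks. Nedd4l, a ubiquitin ligase that Sgk1 phosphorylates, was lower in ko at 4 weeks by 1.34 as log2 means (difference -1.34, limma adjusted p = 0.0269), a call lost without ko replicate 1, 2 or 4 or wt replicate 1 or 4 (highest adjusted p = 0.124). Nedd4l rose in wt by 1.53 (limma adjusted p = 0.00947) and Wnk1 by 1.24 (limma adjusted p = 0.0133). Their P10 arrays were split, as replicates 1 and 2 read 7.28 and 7.27 for Nedd4l while replicates 3 and 4 read 9.51 and 9.35. Without the doubted arrays the steps were 0.45 and 0.48, and neither passed (adjusted p = 0.625 and 0.303). Each step was also lost without wt P10 replicate 1 or 2, and that of Nedd4l without wt 4 weeks replicate 1. Nr3c2, the mineralocorticoid receptor, rose in wt by 0.52 (limma adjusted p = 0.0087), a call lost without wt 4 weeks replicate 1 (adjusted p = 0.0510). In a fit of the compared arrays alone the wt steps of Nedd4l, Wnk1 and Nr3c2 were not called (limma adjusted p = 0.366, 0.305 and 0.123). The sister kinases Sgk2 and Sgk3 were not called. Sgk3 lay at 8.41 ± 0.16 in ko and 7.90 ± 0.27 in wt at 4 weeks (difference 0.50, limma adjusted p = 0.0789).

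All 20 genes of the glucocorticoid response were measured. Nfkbia, the inhibitor of NF-kappaB, was higher in ko at P10 (11.73 ± 0.09 against 10.39 ± 0.22, difference 1.34, limma adjusted p = 0.0064). Bcl6 rose in wt by 2.22 (limma adjusted p = 7.33e-08) and in ko by 1.25 (limma adjusted p = 0.00306) from P10 to 4 weeks. At 4 weeks it was lower in ko by 0.80 (difference -0.80, limma adjusted p = 0.0499), a call lost without ko replicate 1 or 2 or wt replicate 1, 2 or 3 (highest adjusted p = 0.304). With the mean of its probe sets the difference was -0.40 (adjusted p = 0.0847), and the call was also lost without the doubted arrays and in a fit of the compared arrays alone (adjusted p = 0.0668 and 0.261). Mt2 rose in wt by 0.35 (limma adjusted p = 0.0474), a call lost without wt 4 weeks replicate 1 or 4 or wt P10 replicate 1, 2 or 3 (highest adjusted p = 0.242). The Mt2 call was also lost without the doubted arrays and in a fit of the compared arrays alone (limma adjusted p = 0.253 and 0.455). Nr3c1, the glucocorticoid receptor itself, and its target Tsc22d3, named after their values were seen, were not called in wt. Nr3c1 lay at 9.19 ± 0.44 at P10 and 8.71 ± 0.45 at 4 weeks (difference -0.48, limma adjusted p = 0.168), and Tsc22d3 differed by -0.19 (limma adjusted p = 0.274).

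Markers of other cells that a sorted sample could hold were measured beside these results. At P10 the mean of 12 amacrine, horizontal and ganglion cell markers was 6.92 to 7.08 in ko and 7.60 to 8.01 in wt, without overlap. Of these, Tfap2b, Gad1 and Calb1 were called lower in ko at P10 (limma adjusted p = 0.0102, 0.0258 and 0.000135). At 4 weeks the list means overlapped, at 6.83 to 8.20 in ko and 7.07 to 8.27 in wt. Before P10 they were also apart, at 7.12 to 7.45 in ko and 8.33 to 8.48 in wt at E16. At P2 they were 7.17 to 7.27 in ko against 7.30 to 8.32 in wt. At P6 they were 7.02 to 7.13 in ko against 7.86 to 8.32 in wt. The mean of 6 bipolar cell markers was 8.74 to 8.86 in ko and 8.58 to 8.97 in wt at P10, and 7.74 to 7.94 against 7.88 to 8.45 at 4 weeks. Pcp2 was called higher in ko at P10, and at 4 weeks Prkca was called lower in ko (8.13 against 9.99) and Cabp5 higher (8.14 against 7.17).

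The mean of 10 Müller glia markers at 4 weeks was 7.98 to 8.73 in ko and 8.04 to 8.48 in wt, and the range at P10 was 7.90 to 8.09 and 7.95 to 8.21. One of them, the water channel Aqp4, was called lower in ko at 4 weeks (6.29 against 7.63) and rose in wt from P10 by 1.07 (limma adjusted p = 8.03e-06 and 0.000423). The mean of 9 pigment epithelium markers was 6.71 to 7.17 in ko and 6.78 to 6.88 in wt at 4 weeks, and 6.90 to 7.03 against 6.51 to 6.96 at P10. In that list Mitf was likewise called lower in ko at 4 weeks (7.76 against 8.61) and rose in wt from P10 by 1.16 (limma adjusted p = 0.00457 and 0.000165). Of the same lists, Apoe and Dct were called higher in ko at P10, and Glul rose in wt from P10 to 4 weeks. The mean of 9 endothelium and pericyte markers at 4 weeks was 6.47 to 6.70 in ko and 6.44 to 6.57 in wt. None of these 9 had a present call in any column, and Rgs5 was called higher in ko at P10. The mean of 9 microglia and leukocyte markers was 6.52 to 6.84 in ko and 6.31 to 6.40 in wt at 4 weeks, with Tyrobp called higher in ko, and 6.57 to 6.65 against 6.27 to 6.63 at P10.

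The 3' minus 5' signal of 2 control transcripts is a sign of RNA quality. That of Actb was 1.56 to 2.06 in ko and 0.77 to 1.48 in wt at P10, without overlap, and 0.82 to 2.48 against 1.19 to 1.74 at 4 weeks. That of Gapdh was 0.87 to 1.21 in ko at P10 and read 1.77, 2.61, 0.80 and 3.73 in wt, where 3 of the 4 arrays were above all ko arrays, so Actb was higher in ko and Gapdh in most wt arrays. The lowest of these wt values belonged to replicate 3, the highest P10 array for 4 of the 6 genes. At 4 weeks Gapdh was at 1.22 to 1.39 in ko and 0.92 to 1.27 in wt. The part of these cell markers and RNA measures in the values of the 6 genes was not tested.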

How the data were processed

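Transcripts were measured on Affymetrix mouse arrays in sorted photoreceptors. The deposited table holds log2 signals made by the authors with RMA, per the submitters' processing notes, and its version and settings are not given in the sources used here. The authors also deposited detection calls, which are words (unit other) that give each probe set as present or absent at a stage. Their adult column was not assigned to a group, and how replicates were combined is not stated. No values were normalized again.

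Of 45101 probe sets, 34945 were paired with 1 gene, 932 with several, 9160 had no row in the gene table, and 64 were controls. The probe set with the highest mean stood for each of 18193 genes. With limma 3.58.1 (R 4.3.3), a linear model with 1 mean per group used all 39 arrays, with 29 residual and 2.81 prior degrees of freedom. Genes with a Benjamini-Hochberg adjusted p under 0.05 in a contrast were called. Adjusted p-values in the text come from this limma model. SE values of the 6 genes come from their own group SDs.

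The 6 genes and the gene lists were chosen with earlier results of these data known. Named genes are the 6, the 3 most correlated with each (unnamed clones and predicted models passed over), up to 4 called genes with the largest difference per related list and contrast, close paralogs, and Nrl, Gnat1 and Pde6b for timing. Other names were added after values were seen. Tested on simulated data for ko against wt at 4 weeks over 18193 genes, the model called 14 of 67 genes changed 1.5-fold, 47 of 67 changed 2-fold, 60 of 66 changed 4-fold and 3 of 17993 unchanged genes. The number of arrays limits the precision. Alternatives were other normalizations, probe set rules, filters, weights, sets of arrays and a replicate block. Members of lists without an annotated probe set were not analysed here.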

Additional observations from a re-analysis of the deposited data

Results flagged for a closer look

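In 7 of 54 groups of 4 arrays of the 6 genes, 1 array lay far from the other 3 by Dixon's ratio. The cutoff is one that chance passes in about 1 in 20 independent groups. These groups are not independent, because the 6 genes share their arrays, and the share over all genes was not counted. Nothing is thus read from this count. For Slc22a29, wt P10 replicate 3 read 7.66 against 6.45 to 6.62, and ko P6 replicate 4, one of the doubted arrays, read 6.31 against 5.58 to 5.63. For Abca13, wt P10 replicate 3 read 7.58 against 5.41 to 5.74. For Glb1l3, wt P10 replicate 2, a doubted array, was the lowest at 5.51 against 5.75 to 5.79, and wt E16 replicate 2 read 5.64 against 5.43 to 5.45. For Abca8a, wt E16 replicate 2 read 5.36 against 5.03 to 5.08, and wt P2 replicate 3 was the lowest at 5.31 against 5.53 to 5.56. The ko minus wt difference changed between P10 and 4 weeks by -1.28 for Slc22a30 and by -0.58 for Slc22a27, by the interaction test in limma.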

How the results depend on the processing

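No difference of the 6 genes and no call of a related gene changed sign under any alternative run, and named related genes kept their call in 342 refits and lost it in 58. For the 6 genes, leaving out 1 array at a time gave differences at 4 weeks from -4.80 to -4.54 for Slc22a29, -4.13 to -3.95 for Abca13, -2.66 to -2.25 for Glb1l3, -3.39 to -3.07 for C4bp-ps1, -0.63 to -0.15 for Abca8a and -1.38 to -0.93 for Sgk1. The values at P10 were -0.97 to -0.57, -1.10 to -0.38, -0.27 to -0.16, -1.03 to -0.49, -0.58 to -0.13 and 1.02 to 1.36, and those of the wt step were 3.86 to 4.26, 2.82 to 3.54, 1.99 to 2.39, 2.87 to 3.41, 0.25 to 0.78 and 4.66 to 4.99, in the same order. Without the 6 doubted arrays the P10 difference moved to -1.36 for C4bp-ps1 and -0.84 for Abca8a. The other Abca13 probe set gave -2.50 at 4 weeks and 1.84 for the wt step, and the mean of both sets gave -3.28. Of the related genes, 2 were called at P10, with 2 to 10 when 1 array was left out, 12 without the doubted arrays, 6 after quantile normalization, 4 with the mean of a gene's probe sets and 62 with array weights. At 4 weeks 10 were called, with 6 to 10 when 1 array was left out and 26 with array weights. For the wt step 10 were called, with 7 to 30 when 1 array was left out, 78 with array weights and 2 in a fit of the compared arrays alone. The difference between the stages was called for 2, with 0 to 8 when 1 array was left out, 5 without the doubted arrays, 4 after quantile normalization, 51 with array weights and 0 in a fit of the compared arrays alone. The cause of these changes was not tested. The fit of the compared arrays alone has fewer samples and also takes its spread from those arrays only. The estimate of array weights stopped before it converged. Replicate numbers did not pair the arrays, as residuals of equal numbers correlated between -0.72 and 0.68, and with the replicate number as a block the counts were 2, 9, 10 and 2. Rank correlation shared at most 1 of the 3 nearest genes with Pearson correlation. Levels near background, which include ko Slc22a29, Abca13, Glb1l3 and C4bp-ps1 and all Abca8a arrays, limit the size of any fold.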

Other observations

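The nearest 2 measured and named genes on each side of the 6 genes, 24 in all, were compared by a rule chosen after the data were seen. At P10 limma called 0 of them between genotypes, with 3 at an unadjusted p under 0.05, and at 4 weeks it called 5, all lower in ko, beside 2.62% of all genes called lower. Slc22a27, Slc22a30 and Glb1l2 are described above. Acad8, an acyl-CoA dehydrogenase of valine breakdown that lies near Glb1l3, was at 7.70 ± 0.07 in ko and 8.33 ± 0.25 in wt (difference -0.63, limma adjusted p = 0.012). Pfkfb2, an enzyme that sets the level of fructose 2,6-bisphosphate and lies near C4bp-ps1, read 9.10, 9.72, 10.51 and 10.55 in ko and 11.70, 11.81, 12.09 and 12.16 in wt (difference -1.97, limma adjusted p = 0.0381). From P10 to 4 weeks in wt, 4 neighbours were called higher, beside 4.25% of all genes, namely Slc22a27, Slc22a30, Pfkfb2 (2.12, limma adjusted p = 0.0226) and the deubiquitinase Yod1 (1.69, limma adjusted p = 0.0332). At P10 the wt arrays of Pfkfb2 read 8.89, 7.75, 11.72 and 10.93. Replicates 1 and 2 were low and replicate 3 was at the level of 4 weeks. The SD at wt P10 was 1.83 for Pfkfb2 and 0.85 for Yod1, against 0.22 for each at wt 4 weeks. No refits are given for the calls of Acad8, Pfkfb2 and Yod1. The wt steps of Slc22a27 and Slc22a30 were lost in a fit of the compared arrays alone, as given above. Of the 12 neighbours of Abca13, Abca8a and Sgk1, limma called 0 in each of these 3 comparisons, with 0, 0 and 2 at an unadjusted p under 0.05.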
